A study of Homo sapiens with 10 samples.

Results

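TRiC, also called CCT, is the cytosolic chaperonin of human cells, and its 8 subunits are encoded by TCP1, CCT2, CCT3, CCT4, CCT5, CCT6A, CCT7 and CCT8. The rows of the count table that carry these symbols were taken, 8 of the 28380 genes, and all 8 had enough counts to be tested. The cells were RPE-1, a telomerase-immortalized line of human retinal pigment epithelial cells in which every replicate is the same line. They received vehicle (DMSO) or 25 µM sulforaphane (SFN), an isothiocyanate from cruciferous vegetables, for 4 h in complete DMEM, with 5 replicates per treatment and 50000 cells per replicate. Per the methods of the study, mRNA was measured by Lexogen QuantSeq, which reads the 3′ ends of transcripts, whereas the labels name standard Illumina library protocols. The labels do not say whether replicates were separate cultures, so the p-values measure the spread between these samples, which may be partly technical.

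TRiC is a double ring in which each ring holds 1 copy of every subunit. It encloses newly made proteins in its cavity and uses ATP to help them fold, and its best known clients are actin and the tubulins. Prefoldin hands unfolded actin and tubulin to TRiC, phosducin-like proteins modulate it, and tubulin cofactors finish the assembly of the tubulin dimer. The related heat shock chaperones of the cytosol, such as HSP70, are induced by the transcription factor HSF1 when proteins misfold.

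Promoters are shown for the 3 subunits whose level set 1 DMSO library apart (TCP1, CCT4 and CCT8, described further on), and for CCT2 and CCT3. Each sequence is RefSeq's, on GRCh38.p14, and runs on the gene's own strand from 250 bases before the start to 50 after it. Capitals mark heat shock element dyads, which are only a part of the elements that HSF1 binds. They were searched as GAANNTTC and TTCNNGAA, which read the same on both strands. CCT2 and CCT4 each have 2 annotated starts. For both, the start whose window holds a dyad is shown, and the window at the other start holds none. The CCT2 window shown lies inside the gene span given below. The other CCT2 window, chr12:69585209-69585508, spans the first base of the gene. The other CCT4 window ends before the bases of the dyad.
TCP1 promoter, chr6:159789553-159789852, minus strand: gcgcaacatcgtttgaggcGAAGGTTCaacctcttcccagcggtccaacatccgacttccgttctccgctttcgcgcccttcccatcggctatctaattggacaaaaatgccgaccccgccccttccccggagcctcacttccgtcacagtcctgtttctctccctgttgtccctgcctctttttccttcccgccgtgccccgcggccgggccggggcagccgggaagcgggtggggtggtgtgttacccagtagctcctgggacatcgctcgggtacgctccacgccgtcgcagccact
CCT4 promoter, chr2:61888607-61888906, minus strand: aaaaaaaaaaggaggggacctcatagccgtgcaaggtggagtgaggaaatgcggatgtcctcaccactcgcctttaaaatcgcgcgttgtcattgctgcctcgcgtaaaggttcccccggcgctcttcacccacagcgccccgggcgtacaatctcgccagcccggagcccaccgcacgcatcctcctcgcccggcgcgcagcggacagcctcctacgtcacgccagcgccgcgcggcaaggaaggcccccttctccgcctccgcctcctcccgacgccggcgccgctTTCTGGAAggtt
CCT8 promoter, chr21:29073599-29073898, minus strand: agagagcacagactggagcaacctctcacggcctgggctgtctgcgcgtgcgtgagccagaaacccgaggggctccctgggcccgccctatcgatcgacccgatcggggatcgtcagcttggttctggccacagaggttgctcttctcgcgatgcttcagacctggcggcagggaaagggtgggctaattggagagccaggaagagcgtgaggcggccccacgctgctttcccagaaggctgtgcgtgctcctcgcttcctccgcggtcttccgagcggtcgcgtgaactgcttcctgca
CCT3 promoter, chr1:156338243-156338542, minus strand: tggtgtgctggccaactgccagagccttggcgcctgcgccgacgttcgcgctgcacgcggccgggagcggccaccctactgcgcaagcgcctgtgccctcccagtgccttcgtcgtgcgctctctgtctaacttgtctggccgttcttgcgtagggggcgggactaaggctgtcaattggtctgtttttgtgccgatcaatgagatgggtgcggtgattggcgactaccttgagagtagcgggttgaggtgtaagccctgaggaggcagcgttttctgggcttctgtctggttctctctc
CCT2 promoter, chr12:69585639-69585938, plus strand: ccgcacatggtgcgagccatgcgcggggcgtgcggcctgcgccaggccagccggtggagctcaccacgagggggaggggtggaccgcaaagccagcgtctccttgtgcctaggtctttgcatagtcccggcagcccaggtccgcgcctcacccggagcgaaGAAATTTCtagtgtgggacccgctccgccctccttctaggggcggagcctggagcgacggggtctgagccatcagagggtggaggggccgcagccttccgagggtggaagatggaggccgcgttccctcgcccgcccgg

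RefSeq promoters were matched for 7 of the 8 subunits, all but CCT6A. A heat shock dyad was present in 3 of the 7 genes, at base -231 of TCP1, at base -89 of CCT2 and at base 39 of CCT4, where base 1 is the first transcribed base. In CCT2 and CCT4 a dyad was present in the window of only 1 of the 2 annotated starts. For CCT4 this reflects the edge of the window, since the other window ends before the bases of the dyad. Over all 35116 promoters of the same length, 13.5% held at least 1 dyad. Subunits were counted by gene, and CCT2 and CCT4 have 2 promoters each, while this share and those below count single promoters. Counts and shares are therefore in unlike units. The CCAAT box was found in 4 of the 7 genes (TCP1, CCT3, CCT8 and CCT2 at the start not shown), against 34.6% of all promoters. An NRF1 motif was found on either strand in CCT3 and CCT5, against 5.78% of all promoters. The windows of CCT3, CCT5 (chr5:10250287-10250586) and CCT7 lie wholly inside the gene spans given below, as does the CCT2 window shown. The NRF2 motif TGACNNNGC was found in CCT4, and the ETS motif CCGGAAG at the other start of CCT2, against 13.3% and 10.3%. The ATF4 motif TGATGNAAT was in 0 of the 7 genes and in 0.991% of all promoters. The 2 CCT4 windows overlap, since its 2 annotated starts lie close together, and each match describes the letters present and nothing more.

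The subunits were not clustered in the genome. In GRCh38 (GENCODE 44), TCP1 lies on chromosome 6 from 159778498 to 159789703, CCT2 on chromosome 12 from 69585426 to 69601570, CCT3 on chromosome 1 from 156308968 to 156367873 and CCT4 on chromosome 2 from 61868085 to 61888671. CCT5 lies on chromosome 5 from 10249929 to 10266389, CCT6A on chromosome 7 from 56051685 to 56063989, CCT7 on chromosome 2 from 73233420 to 73253021 and CCT8 on chromosome 21 from 29055805 to 29073797. Their canonical transcripts have 11 to 16 exons and are between 1.85 kb (CCT7 and CCT8) and 3.29 kb (CCT5) long.

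Total counts ranged from 15689294 to 20666692 in DMSO and from 12375860 to 17308706 in SFN. The library of DMSO replicate 1 stood apart from the other DMSO libraries. Its mean Spearman correlation with them across genes was 0.935, against 0.979 to 0.982 for the others. These correlations run across genes, which are not replicates. The slope of its log2 CPM, centred on all libraries, against log2 transcript length was -0.26, while this slope lay between 0.082 and 0.14 in the other DMSO libraries and between -0.17 (SFN replicate 2) and 0.10 (SFN replicate 5) in SFN. Among the SFN libraries, replicates 1 to 4 lay between -0.17 and -0.031, below DMSO replicates 2 to 5. With DMSO replicate 1 left out, the slope thus still differed between the groups, except in SFN replicate 5. Its part in the results was not tested. Because DMSO replicate 1 stood apart, results are given with and without it. The label of the cells was checked against markers. The keratins KRT8 (383 CPM in DMSO) and KRT18 (196 CPM), MITF (50.8 CPM), BEST1 (18.8 CPM) and OTX2 (14.0 CPM) were measured, but RPE65, RLBP1, TYRP1, TTR and SERPINF1, which mark mature pigment epithelium, had at most 4 counts in a library. Of markers of leukocytes, endothelium and photoreceptors, PTPRC, CD68, PECAM1, CDH5 and NRL had at most 13 counts in a library.

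The mRNA of 5 of the 8 TRiC subunits, CCT2, CCT3, CCT5, CCT6A and CCT7, was higher after SFN, by 1.27-fold to 1.43-fold, and 0 subunits were decreased. By an edgeR p under 0.05 before adjustment, 6 were increased and 0 decreased. The share of all genes past that unadjusted threshold was not counted, here or for the lists below. For TCP1, CCT4 and CCT8 the fitted log2 fold changes were also positive, but they were not past the adjusted threshold. In these 3 genes DMSO replicate 1 was far above the other DMSO libraries. Without that library all 8 subunits were significantly increased, by 1.27-fold to 1.56-fold. In that comparison the slope on transcript length was lower in SFN replicates 1 to 4 than in the DMSO libraries left. A gene was called when its p from the edgeR quasi-likelihood fit, corrected by Benjamini-Hochberg across the 13378 genes tested, was under 0.05. Of these genes 9.07% were increased (1214 genes) and 13.9% were decreased (1862 genes), 23% in all. Without DMSO replicate 1, 22.5% were increased and 23.5% were decreased, and with libraries scaled by size only, 819 genes were increased and 2163 decreased. Values are CPM, counts scaled to library size after TMM normalization, and they are relative: fewer cells and less RNA per cell cannot be told apart in bulk RNA.

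CCT6A, the zeta subunit, had the highest level of the 8. Its CPM were 780.2, 714, 709, 726 and 705 in DMSO replicates 1 to 5, and 1057, 1087, 1061, 1001 and 974 in SFN replicates 1 to 5. All SFN libraries lay above all DMSO libraries. The level rose from 727 ± 30.8 CPM (SD, n = 5) to 1036 ± 46.7 CPM (SD, n = 5), and the log2 fold change was 0.51 (SE 0.092, edgeR quasi-likelihood adjusted p = 0.00183). Reads of CCT6A could be shared with its pseudogenes CCT6P1, CCT6P2 and CCT6P3 and its paralog CCT6B. Of the 10 pseudogenes of subunits in the table, CCT6P1 had the most counts, 94 to 123 per library and at most 0.913% of the CCT6A count.

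CCT5, the epsilon subunit, was next. It had 723, 694, 638, 684 and 664 CPM in the 5 DMSO libraries and 939, 1024, 933, 910.4 and 810.0 CPM in the 5 SFN libraries. The groups did not overlap, with SFN replicate 5 the lowest of its group and DMSO replicate 1 the highest of the other. Its mean was 681 ± 31.9 CPM (SD, n = 5) in DMSO and 923 ± 76.6 CPM (SD, n = 5) in SFN, a log2 fold change of 0.44 (SE 0.10, edgeR quasi-likelihood adjusted p = 0.00765).

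CCT3, the gamma subunit, differed from the other members in that DMSO replicate 1 was its lowest library. The CCT3 values were 353, 447, 379, 459 and 419 CPM in DMSO and 614, 593, 576, 583 and 550.4 CPM in SFN, so that the groups did not overlap. They averaged 411 ± 44.8 CPM and 583 ± 23.5 CPM (SD, n = 5 each), with a log2 fold change of 0.50 (SE 0.10, edgeR quasi-likelihood adjusted p = 0.0045). Its log2 fold change was 0.45 when that library was left out, and CCT3 was the only subunit whose estimate became smaller.

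CCT2, the beta subunit, had the tightest replicates when all libraries were used. The 5 DMSO libraries held 378, 379, 349.9, 378 and 373 CPM and the 5 SFN libraries 488, 481, 458, 459.9 and 469.9 CPM, again without overlap. The coefficient of variation was 3.32% in DMSO and 2.79% in SFN. Over DMSO replicates 2 to 5 it was 3.66%, above CCT6A (1.23%), CCT8 (1.68%), CCT4 (2.43%) and TCP1 (3.63%) and below the others. For CCT2, means of 372 ± 12.3 CPM and 471 ± 13.2 CPM (SD, n = 5 each) gave a log2 fold change of 0.34 (SE 0.086, edgeR quasi-likelihood adjusted p = 0.0134). This call was lost with libraries scaled by size only (adjusted p = 0.082), with the limma-voom quantile fit nearest to the study's own (0.14), with no low-count filter (0.11) and with the replicate number as a block (0.067).

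CCT7, the eta subunit, rose, but its groups touched. It had 475, 411, 406, 395 and 374 CPM in DMSO and 561, 666, 561, 572 and 471 CPM in SFN, and SFN replicate 5 lay just below DMSO replicate 1. From 412 ± 38.1 CPM in DMSO to 566 ± 69.2 CPM in SFN (SD, n = 5 each), the log2 fold change was 0.46 (SE 0.12, edgeR quasi-likelihood adjusted p = 0.0143).

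**Figure D1:**
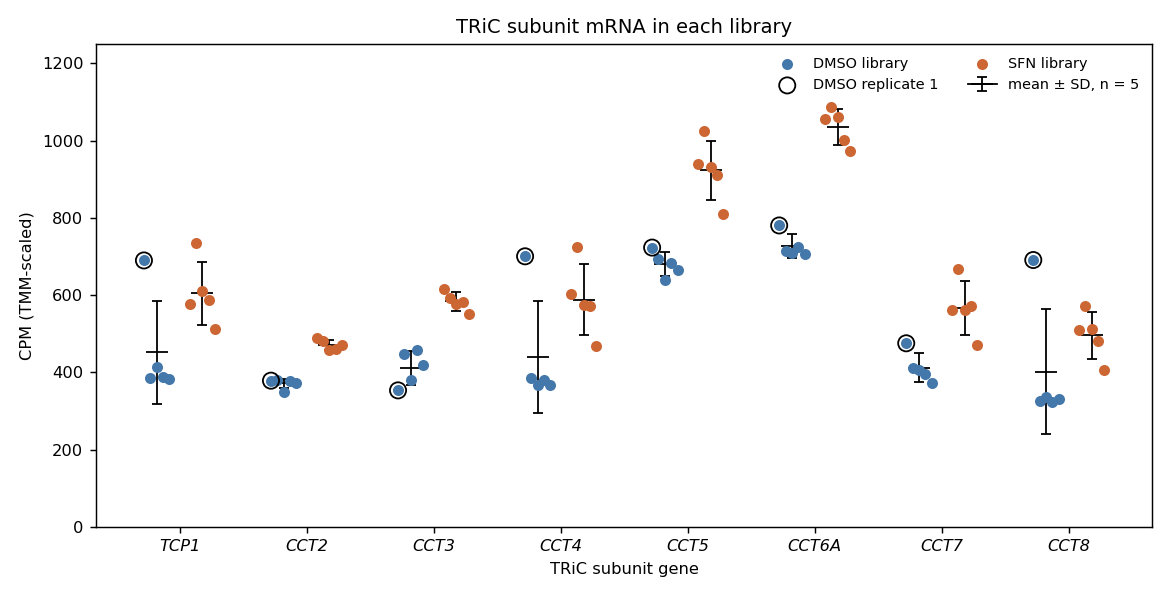
Level of each TRiC subunit mRNA in every library, in TMM-scaled CPM on a linear axis, with DMSO in blue, SFN in orange, DMSO replicate 1 circled and bars for the mean ± SD (n = 5). All SFN libraries lie above all DMSO libraries for CCT2, CCT3, CCT5 and CCT6A, while for TCP1, CCT4 and CCT8 the circled library lies among or above the SFN libraries.

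TCP1, CCT4 and CCT8 had a DMSO replicate 1 that was 1.76, 1.87 and 2.10 times the mean of the other 4 DMSO libraries. TCP1, the alpha subunit after which the complex was first named, had 689.6, 386, 414, 388 and 383 CPM in DMSO replicates 1 to 5 and 577, 735, 610.3, 588 and 512 CPM in SFN replicates 1 to 5. Only SFN replicate 2 exceeded DMSO replicate 1, whereas all 5 SFN libraries exceeded the other 4 DMSO libraries. The TCP1 log2 fold change was 0.42 (SE 0.18, edgeR quasi-likelihood adjusted p = 0.12), from 452 ± 133 CPM to 605 ± 81.7 CPM (SD, n = 5 each). Leaving that library out gave 0.62 (SE 0.096, edgeR quasi-likelihood adjusted p = 1.7e-04).

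CCT4, the delta subunit, showed the same arrangement of libraries. Its DMSO libraries held 700.3, 386, 367, 379 and 368 CPM and its SFN libraries 603, 725, 574, 571 and 467 CPM. With all libraries the means were 440.0 ± 146 CPM and 588 ± 92.2 CPM (SD, n = 5 each) and the log2 fold change was 0.42 (SE 0.20, edgeR quasi-likelihood adjusted p = 0.16). Without DMSO replicate 1 the other 4 DMSO libraries averaged 374.9 ± 9.13 CPM (SD, n = 4), and the CCT4 log2 fold change, 0.64 (SE 0.10, edgeR quasi-likelihood adjusted p = 2.4e-04), was the highest of the 8 subunits.

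CCT8, the theta subunit, was the member in which DMSO replicate 1 departed most. It had 691, 326, 336, 323 and 330.1 CPM in DMSO and 509, 571, 513, 480.0 and 405 CPM in SFN, so DMSO replicate 1 was above all SFN libraries and the other DMSO libraries were below all of them. Its means were 401 ± 162 CPM and 496 ± 60.7 CPM (SD, n = 5 each), and the log2 fold change was 0.31 (SE 0.22, edgeR quasi-likelihood adjusted p = 0.36). Leaving out that library changed it to 0.59 (SE 0.093, edgeR quasi-likelihood adjusted p = 1.9e-04). The DMSO coefficient of variation of CCT8 fell from 40.4% with 5 libraries to 1.68% with 4.

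**Figure D2:**
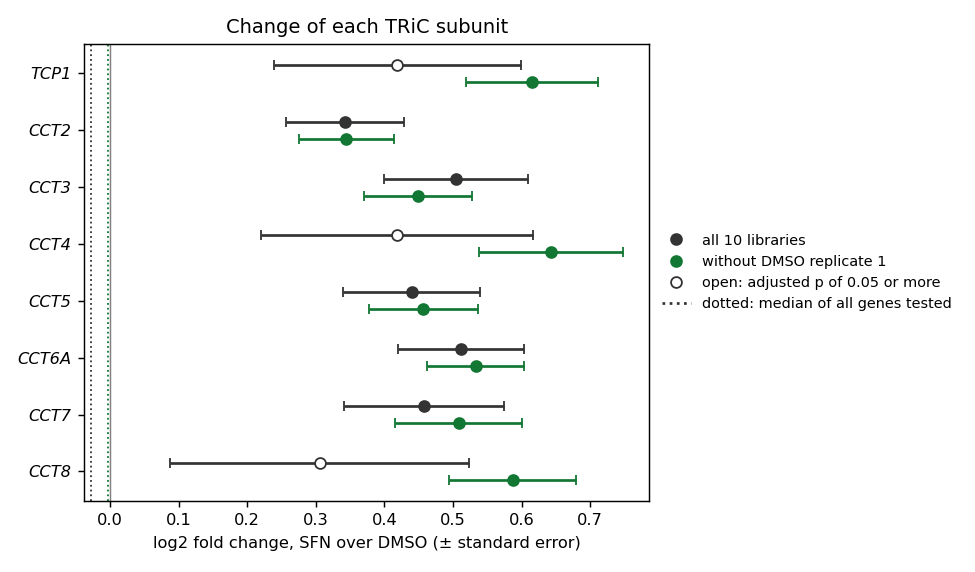
Log2 fold change of each TRiC subunit, SFN over DMSO, with its standard error, from all 10 libraries (black) and without DMSO replicate 1 (green). Open symbols mark an adjusted p of 0.05 or more, and the dotted lines are the medians of all genes tested (-0.028 and -0.0032). All 16 estimates lie above these medians, and the standard errors of TCP1, CCT4 and CCT8 are shorter in green.

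All 8 fitted log2 fold changes were positive, and 5 of them passed the test. They ran from 0.31 (CCT8) to 0.51 (CCT6A), with a median of 0.43, while the median of all genes tested was -0.028. Without DMSO replicate 1 they ran from 0.34 (CCT2) to 0.64 (CCT4), with a median of 0.52, against -0.0032 for all genes. No subunit reached the study's 2-fold limit for a differentially expressed gene (0 of 8, compared with 2.94% of all genes tested that were increased past it). All SFN libraries lay above all DMSO libraries for 4 subunits, compared with 8.78% of all genes tested, and for all 8 without DMSO replicate 1, compared with 16.6%. The summed level of the 8 subunits was 3896 ± 504 CPM (SD, n = 5) in DMSO and 5268 ± 437 CPM (SD, n = 5) in SFN. Before scaling, their counts made up 0.385% to 0.424% of a DMSO library and 0.458% to 0.551% of an SFN library. These 8 genes were chosen with earlier results of these data known.

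Within single libraries the proportions of the subunits departed most in DMSO replicate 1. Each subunit was set against its mean log2 CPM in DMSO replicates 2 to 5. The SD of these differences was taken over the 8 subunits. It was 0.030 to 0.077 in those 4 libraries, which make up the reference, so that low values there are partly built in. It was 0.48 in DMSO replicate 1, where the differences ran from -0.27 (CCT3) to 1.07 (CCT8). In SFN it was 0.065 to 0.20 and was highest in replicate 2. There, CCT4 (0.95) and TCP1 (0.90) were the most raised and CCT2 (0.38) the least, whereas in SFN replicate 5 the differences lay between 0.25 (CCT7) and 0.45 (CCT6A). CCT2 and CCT3, the pair that moved least from one SFN library to another, had coefficients of variation of 2.79% and 4.03% in SFN, compared with 13.5% for TCP1 and 15.7% for CCT4.

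**Figure D3:**
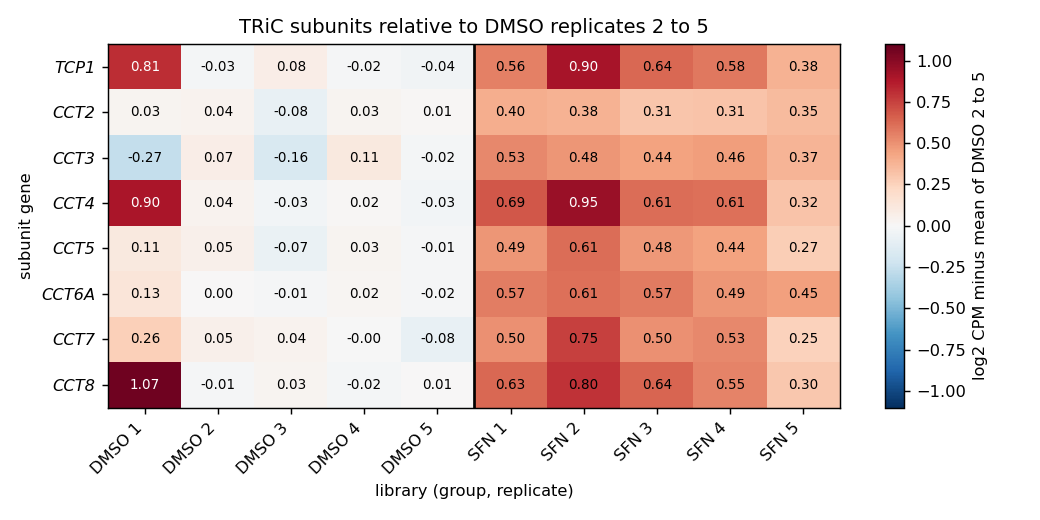
Log2 CPM of each TRiC subunit (rows) in each library (columns), minus the mean of that subunit in DMSO replicates 2 to 5; red is higher and blue lower. SFN columns are between 0.25 and 0.95, and in the DMSO replicate 1 column only TCP1 (0.81), CCT4 (0.90) and CCT8 (1.07) are above 0.30.

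The departure of DMSO replicate 1 was not particular to the chaperonin. Of all genes tested, 17.9% were at least as far above the other DMSO libraries there as TCP1, 15.6% as far as CCT4 and 11.7% as far as CCT8. Over all genes this library also differed by transcript length. Canonical transcripts of CCT8, TCP1 and CCT4 are 1.85, 2.35 and 2.38 kb long, inside the range of the other 5 (1.85 kb to 3.29 kb). Their GC content is 41.5%, 42.3% and 42.9%, and that of the others 42.5% to 51.6%. HSP90AA1, the inducible cytosolic HSP90, also chosen after its values were seen, had 365542 counts in DMSO replicate 1 and at most 113727 in another DMSO library. The part of any of these measures in the result was not tested.

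The order of the subunit levels depended on the scale and on DMSO replicate 1. By CPM, the scale for reads from 3′ ends, the order in DMSO was CCT6A, CCT5, TCP1, CCT4, CCT7, CCT3, CCT8 and CCT2. Over DMSO replicates 2 to 5 it was CCT6A, CCT5, CCT3, CCT7, TCP1, CCT4, CCT2 and CCT8. Which scale applies rests on the library type, on which the labels and the methods differ. CCT6A and CCT5 were at 727 and 681 CPM, and the other 6 lay between 372 and 452 CPM, where most neighbours differed by less than their SDs. Per kilobase of canonical transcript, CCT6A was still first (281 CPM per kb in DMSO and 401 in SFN), but CCT5 was the fifth in DMSO (207 CPM per kb), and the 7 subunits other than CCT6A lay between 185 and 223 CPM per kb. As a share of the summed subunit CPM, CCT6A held 18.8% ± 1.42 (SD, n = 5) in DMSO and 19.7% ± 0.893 (SD, n = 5) in SFN. The CCT2 share was 9.64% ± 0.995 (SD, n = 5) in DMSO and 8.99% ± 0.708 (SD, n = 5) in SFN, with DMSO replicate 1 (7.90%) below all SFN libraries. Without that library it was 10.1% ± 0.247 (SD, n = 4) in DMSO, and the groups still overlapped. The CCT5 share was 17.6% ± 1.44 (SD, n = 5) in DMSO and 17.5% ± 0.120 (SD, n = 5) in SFN. It was 15.1% in DMSO replicate 1, below all SFN libraries (17.4% to 17.6%), and 17.7% to 18.5% in the other DMSO libraries, above all of them.

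Genes that share a start region with a subunit were also measured. MRPL18, a mitochondrial ribosomal protein gene that starts 865 bases from TCP1 on the other strand, rose from 64.0 ± 17.2 to 96.9 ± 15.03 CPM (SD, n = 5 each; log2 fold change of 0.60, SE 0.18, edgeR quasi-likelihood adjusted p = 0.0279). Leaving out replicates in turn ended this call in 8 of 10 cases, and without DMSO replicate 1 its log2 fold change was 0.78. ATPSCKMT, a lysine methyltransferase gene 392 bases from the start of CCT5, rose without overlap from 13.8 ± 1.33 to 20.2 ± 0.752 CPM (SD, n = 5 each; log2 fold change of 0.55, SE 0.10, edgeR quasi-likelihood adjusted p = 0.00235). PSPH, the last enzyme of serine synthesis, 321 bases from CCT6A, rose from 23.3 ± 1.11 to 33.3 ± 3.22 CPM, also without overlap (log2 fold change of 0.52, SE 0.10, edgeR quasi-likelihood adjusted p = 0.00348). TSACC, 234 bases from CCT3, had at most 2 counts in a library. At its 3′ end TCP1 overlaps ACAT2, on the opposite strand, by 615 bases. ACAT2, a cholesterol synthesis enzyme, had a log2 fold change of 0.17 (SE 0.19, edgeR quasi-likelihood adjusted p = 0.59), and 0.39 without DMSO replicate 1 (edgeR quasi-likelihood adjusted p = 0.0072). Whether strand was used in counting is not stated, so reads of TCP1 and ACAT2 in the shared bases may not be separated.

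Other chaperonins and TCP1-like genes were listed next. Of the 6 tested, 2 were increased and 0 decreased (3 and 0 by an edgeR p under 0.05 before adjustment), beside 9.07% and 13.9% of all genes. Their median log2 fold change was 0.53. HSPD1 (HSP60), the chaperonin of mitochondria, rose from 1067 ± 252 to 1493 ± 72.9 CPM (SD, n = 5 each; log2 fold change of 0.48, SE 0.15, edgeR quasi-likelihood adjusted p = 0.0337). This call was lost in 7 of 10 fits that left out a replicate. HSPE1 (HSP10), its co-chaperonin, had 53.3 CPM in DMSO replicate 1, 13.6 to 18.1 CPM in the other DMSO libraries and 29.5 to 42.4 CPM in SFN. Its log2 fold change was 0.58 (SE 0.35, edgeR quasi-likelihood adjusted p = 0.27), and 1.14 without DMSO replicate 1 (edgeR quasi-likelihood adjusted p = 9.4e-06). MKKS, a chaperonin-like protein that acts in assembly of the BBSome at cilia, rose from 10.9 ± 1.78 to 20.3 ± 2.51 CPM without overlap (log2 fold change of 0.90, SE 0.14, edgeR quasi-likelihood adjusted p = 7.1e-04). CCT6B, a paralog of CCT6A known mainly from testis, had 13 to 45 counts per library and a log2 fold change of 0.83 (SE 0.29, edgeR quasi-likelihood adjusted p = 0.056). When DMSO replicate 1 was left out, 4 of these genes were increased and 1 decreased, beside 22.5% and 23.5% of all genes.

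Prefoldin, which delivers clients to TRiC, was the list whose number of increased genes moved most, from 1 to 7, when DMSO replicate 1 was left out. Of 9 prefoldin and prefoldin-like genes, 1 was increased with all libraries and 0 were decreased (2 and 0 by an edgeR p under 0.05 before adjustment), beside 9.07% of all genes increased. Without that library these counts were 7 and 0, beside 22.5% of all genes increased. PFDN1 was the gene called with all libraries, at 51.5 ± 7.11 CPM in DMSO and 67.5 ± 8.49 CPM in SFN (SD, n = 5 each; log2 fold change of 0.39, SE 0.13, edgeR quasi-likelihood adjusted p = 0.048), and 8 of 10 fits without a replicate lost this call. PFDN5, chosen after its values were seen, shows the pattern. Its DMSO replicate 1 had 470.5 CPM, the other DMSO libraries 120 to 148 CPM and SFN 128 to 226 CPM. The list had a median log2 fold change of 0.17 with all libraries and 0.51 without DMSO replicate 1. Among 3 phosducin-like cofactors tested, 0 were increased and 1 decreased (0 and 1 by an edgeR p under 0.05 before adjustment), beside 9.07% and 13.9% of all genes. PDCL fell from 41.6 ± 3.19 to 27.6 ± 3.57 CPM (SD, n = 5 each; log2 fold change of -0.59, SE 0.12, edgeR quasi-likelihood adjusted p = 0.00331), without overlap.

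Further along the folding pathway, 6 tubulin cofactors held 0 increased and 1 decreased gene (0 and 1 by an edgeR p under 0.05 before adjustment), beside 13.9% of all genes decreased. TBCC, which completes the release of the tubulin dimer, fell from 21.6 ± 3.51 to 15.3 ± 1.496 CPM (SD, n = 5 each; log2 fold change of -0.50, SE 0.13, edgeR quasi-likelihood adjusted p = 0.0169). The quantile-normalized limma-voom fit did not retain this call, at an adjusted p of 0.062. Of 31 known TRiC clients, 0 were increased and 5 decreased (1 and 8 by an edgeR p under 0.05 before adjustment), near the share of all genes tested that were decreased, 13.9%, and the list had a median log2 fold change of -0.11. CCNE1 (cyclin E1) fell most, from 13.9 ± 1.26 to 6.03 ± 0.816 CPM (log2 fold change of -1.21, SE 0.13, edgeR quasi-likelihood adjusted p = 5.5e-05). TUBB2A and TUBB4B, beta tubulins, had log2 fold changes of -0.81 (SE 0.15, edgeR quasi-likelihood adjusted p = 0.0022) and -0.61 (SE 0.13, edgeR quasi-likelihood adjusted p = 0.0045). Tubulin genes are close paralogs and the counting could divide reads among them. Beta-actin, ACTB, was at 6086 ± 701 CPM in DMSO and 7098 ± 1536 CPM in SFN (log2 fold change of 0.22, SE 0.16, edgeR quasi-likelihood adjusted p = 0.36), and its sign was negative in the quantile-normalized fit. TUBA1B had a log2 fold change of 0.14 (standard error 0.19) and MLST8, a subunit of both mTOR complexes, of 0.087 (standard error 0.23), and neither was past the threshold by edgeR (adjusted p = 0.67 and 0.83). When DMSO replicate 1 was left out, 2 clients were increased and 8 decreased, beside 22.5% and 23.5% of all genes.

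Cytosolic heat shock chaperones were mostly increased. Of 14 tested, 10 were increased and 0 decreased (11 and 0 by an edgeR p under 0.05 before adjustment), beside 9.07% of all genes increased. Their median log2 fold change was 1.26, against 0.43 for the subunits, and the difference between the lists was not tested. HSPA1B, HSPA1A (near-identical HSP70 genes whose reads may be divided between them) and BAG3, their co-chaperone, had log2 fold changes of 4.34, 3.84 and 2.52 (standard errors 0.12, 0.15 and 0.095). HSPA8, the constitutive HSP70 that cooperates with TRiC, rose from 3364 ± 233 to 5552 ± 545 CPM (SD, n = 5 each; log2 fold change of 0.72, SE 0.11, edgeR quasi-likelihood adjusted p = 6.2e-04). This call was lost in the quantile-normalized limma-voom fit (log2 fold change of 0.40, adjusted p = 0.079).

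**Figure D4:**
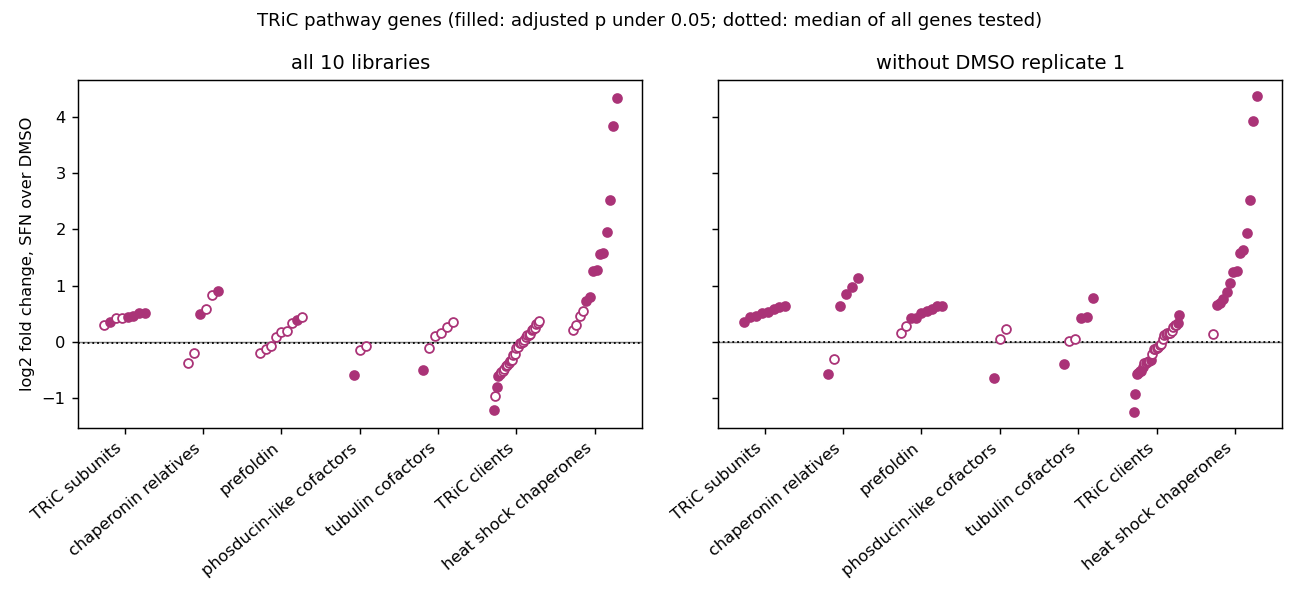
Log2 fold change (SFN over DMSO) of every tested gene of the TRiC subunits and of 6 related lists, from all 10 libraries (left) and without DMSO replicate 1 (right); filled points have an adjusted p under 0.05 and the dotted line is the median of all genes tested. The 8 subunits lie in a narrow band above 0, heat shock chaperones reach 4.34 on the left, and filled prefoldin points number 1 on the left and 7 on the right.

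The genes most like the chaperonin in profile over the 10 libraries were CHCHD3, CAPZA2, MTCH1, ZFAND6 and PDIA4. Likeness was the root mean square difference between the gene's log2 CPM, centred on its own mean, and the mean centred profile of the 8 subunits, over 10031 genes with a mean of at least 5 CPM. It was 0.038 for CHCHD3, a protein of mitochondrial cristae, 0.052 for CAPZA2, an actin capping protein, 0.059 for MTCH1, 0.060 for ZFAND6 and 0.060 for PDIA4, a disulfide isomerase of the ER. The median gene had a value of 0.39. By the same measure the subunits themselves stood at 0.060 (CCT7) to 0.20 (CCT3 and CCT8) from their own mean. Without DMSO replicate 1, CHCHD3 was the second closest gene, and the other 4 were between the 15th and the 33rd.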

How the data were processed

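RNA of 10 RPE-1 libraries was sequenced, and the authors deposited 1 table of raw read counts per gene. Per the labels, FastQC, STAR, featureCounts and edgeR were used on GRCh38 (versions, and the strand setting of counting, are not given in the sources used here). The methods name a Bluebee pipeline for QuantSeq data instead of these aligning steps. The 46 rows with an Ensembl identifier and no symbol stayed in the fit. Groups were taken from the treatment label. Genes were kept by filterByExpr (13378 of 28380), libraries scaled by TMM, and SFN compared with DMSO by the edgeR 4.0.16 quasi-likelihood test with Benjamini-Hochberg adjustment in R 4.3.3. Means and SDs are of CPM, and log2 profiles add 0.5 CPM. Alternatives used DESeq2 1.42.0, limma 3.58.1, other scalings, no filter, a replicate block and each library left out, and those combining the omission of DMSO replicate 1 with another change were chosen after seeing the data. The fit was tested on simulated data. GENCODE 44 held 28145 of the 28380 gene identifiers. Total counts per library were 12375860 to 20666692. Named genes were the 8 subunits, the 3 largest called changes of each list, a few genes named outright, genes with a start within 1000 bases on the opposite strand, pseudogenes and the 5 genes nearest in profile. ACAT2, which overlaps TCP1, was added after the data were seen. The members and lists were chosen with earlier results of these data known.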

Additional observations from a re-analysis of the deposited data

Results flagged for a closer look

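A sample was singled out when its gap to the nearest sample of its group of 5, divided by the range of the group, exceeded 0.71. Of 74 groups examined 22 did, 18 of them through DMSO replicate 1. Independent groups would give about 3.7 by chance, but these groups share libraries and the genes nearest in profile were chosen for their likeness to the subunits, so the numbers cannot be set against each other. Among the subunits, DMSO replicate 1 was the highest DMSO library by 0.90 of the range for TCP1, 0.94 for CCT4, 0.73 for CCT6A and 0.97 for CCT8, and by 0.88 for the summed CPM of all 8. For CCT2 the lowest DMSO library was replicate 3, by 0.79 of the range. In related genes the same library was highest by 0.91 (HSPD1), 0.89 (HSPE1), 0.93 (TBCC), 0.74 (TUBA1B) and 0.89 (MLST8) of the range, and in genes beside TCP1 by 0.92 (MRPL18) and 0.78 (ACAT2). Of the genes nearest in profile it was highest by 0.80 (CHCHD3), 0.72 (CAPZA2), 0.77 (ZFAND6) and 0.72 (PDIA4). Its TMM factor and its slope on transcript length were the lowest of the DMSO group, by 0.91 and 0.87 of the range. SFN replicate 5 was the lowest SFN library by 0.72 (BAG3), 0.73 (CAPZA2) and 0.85 (PDIA4).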

How the results depend on the processing

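The number of subunits increased was 5, between 5 and 8 with 1 replicate left out (8 without DMSO replicate 1), 2 by quantile-normalized limma-voom, 8 with quality weights and 0 past a 2-fold limit. Without DMSO replicate 1 it was 8 when SFN replicate 2 was also left out, 8 with library size only, 8 by DESeq2 and 7 by quantile-normalized voom. TCP1 ranged from 0.35 to 0.62 (log2), CCT4 from 0.34 to 0.64 and CCT8 from 0.24 to 0.59 with a replicate left out. They were past the threshold in 2 of 17 alternatives, the omission of DMSO replicate 1 and quality weights (0.60, 0.62 and 0.60). Without DMSO replicate 1 they were 0.54, 0.56 and 0.54 when SFN replicate 2 was also left out, 0.48, 0.51 and 0.45 with library size only, 0.64, 0.66 and 0.61 by DESeq2, and 0.39, 0.42 and 0.41 by quantile-normalized voom. CCT6A and CCT7 were past the threshold in 17 of 17. CCT2 was not past it at 0.26 (library size only), 0.22 (quantile-normalized voom), 0.33 (no filter), 0.34 (replicate block) and 0.16 (quantile-normalized voom without DMSO replicate 1), nor were CCT3 (0.37) and CCT5 (0.30) by quantile-normalized voom. The cause was not tested.

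Over all genes 906 to 3058 were increased and 1470 to 3193 decreased with a replicate left out, and 3874 and 4041 with quality weights. Library size only moved the median of all genes from -0.028 to -0.11, and to -0.13 without DMSO replicate 1. Of the lists, chaperonin relatives had 1 to 4 increased and 0 to 1 decreased genes with a replicate left out, 4 and 1 with quality weights, and 1 increased with no filter. Prefoldin had 0 to 7 increased with a replicate left out, 9 with quality weights, and 0 with library size only, quantile-normalized voom, no filter or the replicate block. Clients had 0 to 2 increased and 4 to 8 decreased with a replicate left out, 8 decreased with library size only, 6 increased and 13 decreased with quality weights, and 1 increased by DESeq2. Tubulin cofactors had 0 to 3 increased with a replicate left out, 3 with quality weights, and 0 decreased by quantile-normalized voom, and phosducin-like cofactors 1 increased with quality weights. ACTB reversed to -0.12 by quantile-normalized voom and MLST8 to -0.087 without SFN replicate 2 (-0.087 to 0.29 with a replicate left out). Per kilobase, the ranks of 7 subunits by level moved.

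Same-numbered DMSO and SFN libraries had correlations of their deviations from -0.33 to 0.56, and only number 5 correlated best with its own. With so few libraries these correlations cannot decide whether equal numbers mark paired samples, and the labels do not say. With the replicate block 4 subunits were increased, and 911 genes in all.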
